A study of Homo sapiens with 72 samples.

Results

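The genes described here are the RUNX transcription factors RUNX1, RUNX2 and RUNX3, their shared partner CBFB, the ETS family repressor ETV6, and 5 genes known for high expression in ETV6-RUNX1 leukemia, EPOR, TCFL5, KCNN1, BIRC7 and DSC3. They were taken as a named list, chosen with earlier results of these data known. The list makes 10 of the 20033 protein-coding genes of GENCODE release 44, and its genes were located on hg38. Histone marks were measured by Cut&Tag, in which an antibody directs a transposase to the marked chromatin so that the DNA around the mark can be sequenced. REH is a precursor B acute lymphocytic leukemia line that carries the ETV6-RUNX1 fusion, NALM6 is a precursor B acute lymphocytic leukemia line, and Raji is a Burkitt lymphoma line. Each line was left untreated or given 1 nM Bryostatin, a natural product that binds protein kinase C, overnight by the labels and for a day by the study's text. H3K4me2, H3K4me3 and H3K27me3 were profiled in 3 replicates of each line and treatment, which makes 54 libraries. Nothing in the labels says that replicates were separate cultures, so the p-values below measure the spread between these libraries, which may be technical.

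RUNX proteins bind DNA as a heterodimer with CBFB and control blood cell development. Each RUNX gene is transcribed from a distal and a proximal promoter. The ETV6-RUNX1 fusion is driven by the ETV6 promoter and joins the first part of ETV6 to almost all of RUNX1, and it is the most common gene fusion in childhood B cell leukemia. H3K4me3 marks active promoters, H3K4me2 marks promoters and enhancers, and H3K27me3 marks genes silenced by Polycomb.

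A start group is the set of annotated starts of a gene whose windows of 1 kb on each side overlap, and the 10 genes have 15 of the 25948 start groups of all protein-coding genes. A peak was counted at a start when it overlapped such a window by at least 1 bp. The height of a peak is its maximum coverage in RPKM, and the total signal is the coverage summed over its bases. The number of mapped reads, estimated from the step that a single read makes in RPKM coverage, lay between 5.12 M and 47.9 M (median 18.8 M) in 48 libraries. The other 6 libraries, replicate 1 of NALM6 in every mark and treatment, have signal on another scale and short peaks, so NALM6 heights are given for replicates 2 and 3 alone. Replicate 3 of H3K4me3 in bryostatin-treated NALM6 had 5.41 M reads and 4389 peaks, the fewest of that mark. In replicate 2 of H3K27me3 in untreated Raji, 90.5% of the starts that carried H3K4me3 in all 6 Raji libraries also had an H3K27me3 peak, against 0.150% to 13.0% in the other 17 H3K27me3 libraries, each read over the starts of its own line. H3K27me3 results in Raji are therefore also given without it. Marker genes separated the precursor B lines from Raji. Peaks of H3K4me3 in all untreated libraries were found at 2 of 3 precursor B genes in REH, at 3 of 3 in NALM6 and at 0 of 3 in Raji, and at the mature B genes MS4A1 and CR2 in Raji alone. VPREB1, a surrogate light chain gene, had no H3K4me3 peak in REH. The T cell genes CD3E and CD2 had no peak of any mark in the untreated libraries. The myeloid gene MPO had H3K4me2 in 2 of 3 untreated REH libraries.

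For H3K4me2, 5 of the 10 genes had a peak in all 3 untreated REH libraries and in no untreated NALM6 or Raji library. They were DSC3, EPOR, and 1 of 2 start groups each of RUNX2, KCNN1 and BIRC7. In all, 834 of 13855 start groups with any H3K4me2 peak showed this pattern, or 6.02%, against 5 of 13 start groups of the named genes. Because the genes were chosen with earlier results of these data known, such shares are a description and not a test. DSC3, EPOR, the internal start of KCNN1 and the first start of BIRC7 kept the pattern over all 6 REH libraries and all 12 of the other lines (4.03% of all start groups). For H3K4me3, EPOR, the internal start of KCNN1 and both starts of BIRC7 had a peak in REH alone, against 1.69% of all start groups, and they kept it over the treated libraries (1.57%). RUNX3 had H3K4me3 in Raji alone, a pattern seen at 2.9% of start groups. For H3K27me3, DSC3 was marked in REH alone (2.17%). Leaving out replicate 1 of NALM6 and the Raji library named above gave the same genes for each of the 3 marks. With equal numbers of peaks taken from each library, the genes with H3K4me3 in REH alone were KCNN1 and TCFL5 in place of EPOR, KCNN1 and BIRC7, and no gene had H3K27me3 in REH alone. A start without a peak is not a start without the mark, because the threshold differs between libraries.

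**Figure D1:**
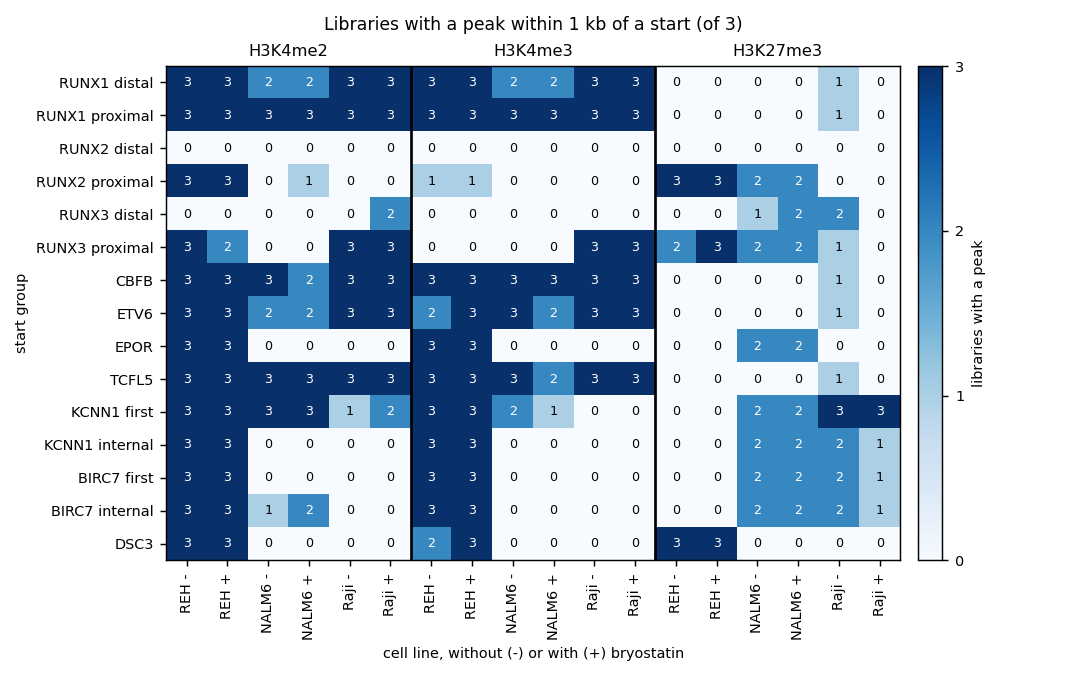
Number of libraries, of 3, with a peak within 1 kb of each start group (rows) for every line, treatment and mark (columns, minus for untreated and plus for bryostatin). EPOR, the internal start of KCNN1 and the starts of BIRC7 carry H3K4me3 in 3 of 3 REH libraries and in 0 of the other lines, where H3K27me3 is found instead in some NALM6 libraries, and DSC3 is the start with H3K27me3 in REH alone.

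ETV6, whose promoter drives the fusion, had less H3K4me3 in REH than in the other lines, and less H3K4me2 than in Raji. It starts at chr12:11649674 on the plus strand. H3K4me3 peaks in untreated REH were 807 and 1287 RPKM high in replicates 1 and 3, and replicate 2 had none. In untreated NALM6 they were 2507 and 2717 RPKM high in replicates 2 and 3. Untreated Raji had 4844, 2695 and 2658 RPKM in replicates 1, 2 and 3, so that every NALM6 and Raji height lay above every REH height. Because of the missing peak, ETV6 could be tested for H3K4me3 only where start groups called in 2 of 3 libraries were kept and REH replicate 2 was left out. The log2 change of total signal was then -1.79 (SE 0.20) in REH against Raji (limma adjusted p = 0.000388) and -1.47 (SE 0.30) against NALM6 (limma adjusted p = 0.0312). H3K4me2 heights in untreated REH were 377, 293 and 378 RPKM, against 599 and 716 RPKM in NALM6 and 1913, 1687 and 1118 RPKM in Raji. For H3K4me2 against NALM6 the log2 change was -0.78 (SE 0.54, limma adjusted p = 0.418), with NALM6 replicate 1, which had no peak, left out. For H3K4me2 the log2 change against Raji was -1.44 (SE 0.49, limma adjusted p = 0.0483), although the total signals overlapped between the lines. That call was lost without REH replicate 2 or 3 or without Raji replicate 1 or 3 (limma adjusted p from 0.0793 to 0.155).

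The genes around ETV6 were also lower in REH than in Raji. Over the 30 tested H3K4me3 start groups within 5 Mb of ETV6, the median log2 change of REH against Raji was -0.55 and 13.3% of them were higher in REH, while the median over all other chromosomes was 0.03. For H3K4me2 the median over 42 such start groups was -0.65. Over the whole of chromosome 12 the medians against Raji were smaller, -0.06 for H3K4me3 over 405 start groups and -0.13 for H3K4me2 over 459. Against NALM6 the medians within 5 Mb were 0.14 for H3K4me3 over 19 start groups and 0.32 for H3K4me2 over 23. These windows were chosen after the values were seen. DNA copy number was not measured in these libraries, and its part in the ETV6 values was not tested.

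Within ETV6, peaks were confined to the stretch before intron 5, the intron where the fusion of this leukemia is known to join. Intron 5 (chr12:11869970-11884444) and the stretch behind it (chr12:11884445-11895377) held no peak of any mark in any of the 54 libraries. Before intron 5, H3K4me2 peaks covered 3.19% ± 2.06 (SD, n = 3) of the bases in untreated REH, 1.89% ± 1.49 (SD, n = 3) in NALM6 and 4.75% ± 2.60 (SD, n = 3) in Raji. These ranges overlapped. The breakpoint of REH itself is not in the files.

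RUNX1 had the strongest H3K4me3 in REH of the 3 lines at its proximal start, and its distal start differed less. The proximal start group lies at chr21:34887183-34888690 on the minus strand and the distal one at chr21:35049298-35049344. At the proximal start the H3K4me3 heights in replicates 1, 2 and 3 of untreated REH were 2731, 2906 and 3695 RPKM. In NALM6 they were 1788 and 1466 RPKM in replicates 2 and 3. In Raji they were 796, 965 and 785 RPKM, and no height of a line overlapped those of another. The total signal was 6.92 times that of Raji (log2 change 2.79, SE 0.12, limma adjusted p = 3.34e-06). Against NALM6 it was 2.16 times higher (log2 change 1.11, SE 0.13, limma adjusted p = 0.00669). The call against NALM6 was lost without REH replicate 1 (limma adjusted p = 0.0612) or replicate 2 (limma adjusted p = 0.0533). It was also lost with the maximum signal (0.84, limma adjusted p = 0.0908), the mean signal per base (0.66, limma adjusted p = 0.222), no centring (2.43, limma adjusted p = 0.670), the replicate block (limma adjusted p = 0.0590) and between the treated libraries (0.99, limma adjusted p = 0.144).

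For H3K4me2 the log2 change at the proximal start of RUNX1 was 1.38 (SE 0.12, limma adjusted p = 0.000149) against Raji. Against NALM6 it was -0.18 (SE 0.23, limma adjusted p = 0.666). The heights for H3K4me2 overlapped, with 1800, 1902 and 2888 RPKM in REH and 1950, 1672 and 1132 RPKM in Raji. What differed was the called length, 10400, 7130 and 6030 bp in REH against 2160, 2090 and 2930 bp in Raji. These H3K4me2 libraries had 18.8, 15.4 and 13.7 M reads in REH and 8.31, 6.70 and 13.9 M in Raji. The part of depth in the length was not tested. With the mean signal per base in place of the total the log2 change against Raji fell to 0.06 (limma adjusted p = 0.810). At the distal start the H3K4me3 heights were 1826, 1764 and 2388 RPKM in untreated REH, 2011 and 2235 RPKM in NALM6 and 2170, 1323 and 1241 RPKM in Raji, and they overlapped. At the distal start of RUNX1 the log2 change against Raji was 0.82 (SE 0.13, limma adjusted p = 0.00148) for H3K4me3 and 0.91 (SE 0.24, limma adjusted p = 0.0205) for H3K4me2. The H3K4me2 call there was lost in 4 of 6 fits that left out 1 library, namely REH replicate 1 or 2 or Raji replicate 1 or 2. Neither call at the distal start held with the maximum signal (limma adjusted p = 0.112 for H3K4me3 and 0.149 for H3K4me2).

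Other genes of chromosome 21 were also higher in REH than in Raji, though by less. The median log2 change of H3K4me3 over the other 82 tested start groups of chromosome 21 was 0.47, and 80.5% of them were higher in REH, against a median of 0.02 on the other chromosomes. Against NALM6 the median over 61 start groups was 0.30. Within 5 Mb of RUNX1 the H3K4me3 medians were 0.34 over 39 start groups against Raji and 0.20 over 30 against NALM6. For H3K4me2 the medians within 5 Mb were 0.09 over 40 start groups against Raji and -0.01 over 22 against NALM6. These regions were also chosen after the values were seen. Over the 18 H3K4me3 libraries, the start groups whose signal followed the proximal start of RUNX1 most closely were those of DOP1B (r = 0.985), ETS2 (r = 0.979) and LYL1 (r = 0.976), among 4264 start groups called in all 18. Libraries of a line share that line and its scaling, so these correlations are a description. ETV6 and the distal start of RUNX1 were called in 16 of 18 libraries and have no such list. The part of copy number in these values was not tested.

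Inside RUNX1, H3K4me2 peaks lay over the long intron between the 2 promoters in REH. This intron (chr21:34892964-35048841) was taken after the values were seen, because the first intron of the distal transcript, which had been named for this purpose, is only 209 bp long. H3K4me2 peaks covered 9.70% ± 2.45 (SD, n = 3) of it in untreated REH, 4.38% ± 4.39 (SD, n = 3) in NALM6 and 2.51% ± 1.42 (SD, n = 3) in Raji. The untreated REH libraries, from 6.94% to 11.6%, lay above the untreated Raji libraries, from 1.60% to 4.14%, and overlapped those of NALM6. Bryostatin-treated Raji had 8.71%, 8.61% and 2.08% in replicates 1, 2 and 3, which reaches into the REH range. Read depth differed between these libraries, and its part in the covered share was not tested. H3K27me3 was found in this intron only in Raji replicate 2.

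CBFB, the partner that raises the DNA affinity of all RUNX proteins, showed no called difference between the untreated lines. Its H3K4me3 heights were 1873, 1710 and 1887 RPKM in untreated REH, 2224 and 1902 RPKM in NALM6 and 1918, 1562 and 1831 RPKM in Raji. The log2 change of REH was -0.07 (SE 0.10, limma adjusted p = 0.611) against Raji and -0.08 (SE 0.12, limma adjusted p = 0.660) against NALM6. The heights of REH and Raji overlapped, while both NALM6 heights lay above those of REH. Between the bryostatin-treated libraries of REH and Raji the log2 change was -0.22 (limma adjusted p = 0.0368). CBFB had no H3K27me3 peak outside Raji replicate 2.

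RUNX2, the factor that directs bone formation, was marked in a mixed way in REH. Its proximal start (chr6:45422485-45422577, plus strand) carried H3K4me2 in untreated REH at 1004, 977 and 1004 RPKM, with no peak in untreated NALM6 or in Raji. Treated NALM6 had a peak of 420 RPKM in replicate 2. The same start carried H3K27me3 in REH at 344, 290 and 217 RPKM. NALM6 had H3K27me3 there at 528 and 527 RPKM in replicates 2 and 3 and Raji had none. H3K4me3 was called in 1 of 3 untreated REH libraries, at 423 RPKM. The start of a lncRNA on the other strand lies 480 bp away, so the peak cannot be assigned to RUNX2 alone. The distal start of RUNX2 (chr6:45328317-45328727) had no peak of any mark in any library.

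RUNX3, a factor of lymphoid and neuronal development, was marked mainly in Raji. Its proximal start (chr1:24930276, minus strand) carried H3K4me3 in untreated Raji at 7468, 4168 and 4370 RPKM, and no REH or NALM6 library had such a peak. In REH the start had H3K4me2 alone, at 536, 488 and 560 RPKM, beside H3K27me3 at 105 and 136 RPKM in replicates 1 and 2. In Raji the H3K4me2 heights were 1155, 747 and 923 RPKM. The log2 change of H3K4me2 total signal in REH against Raji was -2.23 (SE 0.35, limma adjusted p = 0.00190), and -0.57 with the mean signal per base (limma adjusted p = 0.0799). NALM6 had neither H3K4 mark at this start and carried H3K27me3 at 669 and 699 RPKM in replicates 2 and 3. The only Raji library with H3K27me3 at this start was replicate 2, the one that stands apart. The distal start (chr1:24965010) had no H3K4me3 peak in any library, and H3K4me2 there was called in 2 of 3 bryostatin-treated Raji libraries.

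The RUNX genes are themselves known targets of RUNX proteins, and the promoter windows of RUNX3 are shown with the RUNX motif in capitals. The motif was searched as TGTGGT or TGCGGT on both strands in the 250 bases before each RefSeq start (GRCh38.p14), and 16.3% of 35116 such windows held it. Of 12 windows of 9 of the named genes, 2 held it, namely those before the distal starts of RUNX3 and RUNX2, each with 2 matches. CBFB and the distal start of RUNX1 had no such window and were not searched. The RUNX3 windows are chr1:24965011-24965260 for the distal start, which had no H3K4me3 in any line, and chr1:24930277-24930526 for the proximal start, which had it in Raji. Both are on the minus strand.
RUNX3 distal: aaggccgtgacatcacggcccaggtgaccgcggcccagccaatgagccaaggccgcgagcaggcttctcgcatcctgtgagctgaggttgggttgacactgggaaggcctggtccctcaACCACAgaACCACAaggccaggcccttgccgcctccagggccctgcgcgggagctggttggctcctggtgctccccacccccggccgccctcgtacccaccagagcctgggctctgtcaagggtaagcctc
RUNX3 proximal: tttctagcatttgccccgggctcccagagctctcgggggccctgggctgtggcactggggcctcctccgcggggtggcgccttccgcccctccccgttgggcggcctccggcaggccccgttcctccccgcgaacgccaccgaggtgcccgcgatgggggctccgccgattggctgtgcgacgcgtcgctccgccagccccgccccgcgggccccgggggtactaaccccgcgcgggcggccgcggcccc
The distal window has 67.6% G and C and the proximal one 78.4%. A match is a description of the letters and not a measured site.

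EPOR, the receptor for erythropoietin, carried both H3K4 marks at its start in REH alone. It starts at chr19:11384312 on the minus strand. H3K4me3 heights were 1069, 951 and 884 RPKM in untreated REH and 907, 1169 and 809 RPKM after bryostatin. H3K4me2 heights were 1296, 1452 and 1346 RPKM in untreated REH. No NALM6 or Raji library had either mark within 1 kb of the start, and NALM6 carried H3K27me3 there at 319 and 256 RPKM in replicates 2 and 3. REH had no H3K27me3 peak at EPOR. The erythroid genes GATA1 and HBB had no H3K4me2 or H3K4me3 peak in any untreated library.

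In Raji the H3K4 marks of EPOR lay inside the gene instead of at its start. H3K4me3 peaks in untreated Raji began 1952, 2032 and 1852 bp downstream of the start in replicates 1, 2 and 3 and ended 3701, 4781 and 4191 bp downstream. Their heights were 750, 532 and 456 RPKM, and H3K4me2 peaks were called at the same place at 1215, 1463 and 916 RPKM. A noncoding EPOR transcript with a retained intron begins 3074 bp downstream of the start, within these peaks. In REH no H3K4me3 peak was separate from the start. Internal H3K4me2 was also called in untreated REH, as a separate peak of 398 RPKM from 2332 to 4001 bp downstream in replicate 1, and the start peak of replicate 3 reached into the same stretch. Over the whole gene the H3K4me3 peaks covered 32.6% ± 7.24 (SD, n = 3) in Raji and 23.3% ± 0.485 (SD, n = 3) in REH, so the share over the gene put Raji above REH while the start alone put REH above Raji.

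BIRC7, an inhibitor of apoptosis also called livin, carried the H3K4 marks in REH and H3K27me3 in the other lines. Its start groups lie at chr20:63235883 and chr20:63238202 on the plus strand, and 1 peak of each H3K4 mark covered both of them in every REH library. H3K4me3 heights in untreated REH were 1213, 988 and 894 RPKM and H3K4me2 heights 2092, 2188 and 2568 RPKM. Raji had no peak of either mark, and untreated NALM6 had H3K4me2 at the internal start only, at 655 RPKM in replicate 3. H3K27me3 covered the whole gene in NALM6 replicates 2 and 3, in peaks of 24780 and 22480 bp. In Raji it did so in replicates 2 and 3, in peaks of 27530 and 36000 bp, so 1 library remained without replicate 2. No REH library had H3K27me3 at BIRC7. The microRNA gene MIR3196 starts 577 bp from the internal start.

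KCNN1, a calcium-activated potassium channel of small conductance, carried wide H3K4 marks at both starts in REH. Its first start group lies at chr19:17951293-17952258 and the internal one at chr19:17967107-17967199, on the plus strand. At the first start the H3K4me3 heights were 2888, 3054 and 3557 RPKM in untreated REH, 316 and 518 RPKM in NALM6, and no Raji library had a peak. The log2 change of H3K4me3 against NALM6 was 3.0 (SE 0.23, limma adjusted p = 0.00156) when the NALM6 library without a peak was left out. For H3K4me2 it was 1.88 (SE 0.45, limma adjusted p = 0.0609) over all 6 libraries, and 1.34 without NALM6 replicate 1 (limma adjusted p = 0.00103). At the internal start REH alone had H3K4me3, at 1927, 1849 and 2358 RPKM. H3K27me3 was called at the first start in all 6 Raji libraries, at 306 to 414 RPKM, and in NALM6 at 507 and 683 RPKM in untreated replicates 2 and 3. REH had none. H3K4me2 peaks covered a share of the KCNN1 gene of 21.6% ± 0.462 (SD, n = 3) in untreated REH, against 1.56% ± 1.62 (SD, n = 3) in NALM6 and 0.695% ± 1.20 (SD, n = 3) in Raji.

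DSC3, a desmosomal cadherin of stratified epithelia, carried all 3 marks in REH and none in the other lines. It starts at chr18:31042742-31042815 on the minus strand. H3K4me2 heights in untreated REH were 1237, 892 and 1091 RPKM. H3K4me3 was lower, at 754 and 668 RPKM in replicates 1 and 3 with no peak in replicate 2, and was called in all 3 treated libraries at 701, 820 and 633 RPKM. H3K27me3 heights were 367, 360 and 777 RPKM untreated and 299, 249 and 370 RPKM after bryostatin. Marks on the same molecules and marks in different cells cannot be told apart here.

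TCFL5, a basic helix-loop-helix transcription factor, was marked in all lines, with more H3K4me3 in REH. It starts at chr20:62861763-62861822 on the minus strand. H3K4me3 heights were 1988, 1726 and 2064 RPKM in untreated REH, 1706 and 1261 RPKM in NALM6 and 1017, 1099 and 1022 RPKM in Raji. The REH values lay above those of both other lines. The log2 change was 1.26 (SE 0.13, limma adjusted p = 0.000145) against Raji and 1.01 (SE 0.21, limma adjusted p = 0.0440) against NALM6. The call against NALM6 was lost without any 1 of the 3 REH libraries or without NALM6 replicate 3 (limma adjusted p from 0.102 to 0.189). It was also lost with the maximum signal (0.48, limma adjusted p = 0.194), no centring (2.32, limma adjusted p = 0.670) and the replicate block (limma adjusted p = 0.113). The tested neighbours of TCFL5 on chromosome 20 went the other way against Raji, with a median of -0.25 over 42 H3K4me3 start groups within 5 Mb. Against NALM6 they went the same way as TCFL5. The median there was 0.14 over 37 H3K4me3 start groups, 73.0% of them higher in REH, beside 0.03 on the other chromosomes. For H3K4me2 the change of TCFL5 was 0.36 (SE 0.16, limma adjusted p = 0.109) against Raji and -0.09 (SE 0.38, limma adjusted p = 0.895) against NALM6.

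The promoter windows of the 3 leukemia genes with H3K4me3 in REH alone are shown for comparison, each as the 250 bases before its RefSeq start. They are chr19:11384315-11384564 on the minus strand for EPOR, chr19:17966857-17967106 on the plus strand for the internal start of KCNN1, and chr20:63235655-63235904 on the plus strand for BIRC7. None of them holds the RUNX motif, so no letter is in capitals.
EPOR: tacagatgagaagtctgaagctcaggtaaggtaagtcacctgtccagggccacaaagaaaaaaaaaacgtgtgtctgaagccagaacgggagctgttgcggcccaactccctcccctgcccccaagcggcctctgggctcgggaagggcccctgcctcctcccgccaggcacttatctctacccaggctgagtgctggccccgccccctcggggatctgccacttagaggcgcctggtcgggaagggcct
KCNN1 internal: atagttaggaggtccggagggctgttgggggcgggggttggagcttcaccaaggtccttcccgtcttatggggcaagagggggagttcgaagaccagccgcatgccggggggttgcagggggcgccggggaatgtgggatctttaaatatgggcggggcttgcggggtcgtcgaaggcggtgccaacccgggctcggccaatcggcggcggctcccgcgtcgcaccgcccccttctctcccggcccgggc
BIRC7: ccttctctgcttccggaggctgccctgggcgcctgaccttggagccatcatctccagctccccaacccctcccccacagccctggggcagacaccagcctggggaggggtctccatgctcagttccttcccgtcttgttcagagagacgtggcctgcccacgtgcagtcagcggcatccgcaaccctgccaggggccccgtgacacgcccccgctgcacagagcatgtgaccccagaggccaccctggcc
They have 62%, 68.8% and 68% G and C, above the median of 58% over all windows. This is not particular to these 3 windows. The other searched windows of the named genes held 60.4% (DSC3) to 82.8% (TCFL5), except the distal RUNX2 window with 41.6%.

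**Figure D2:**
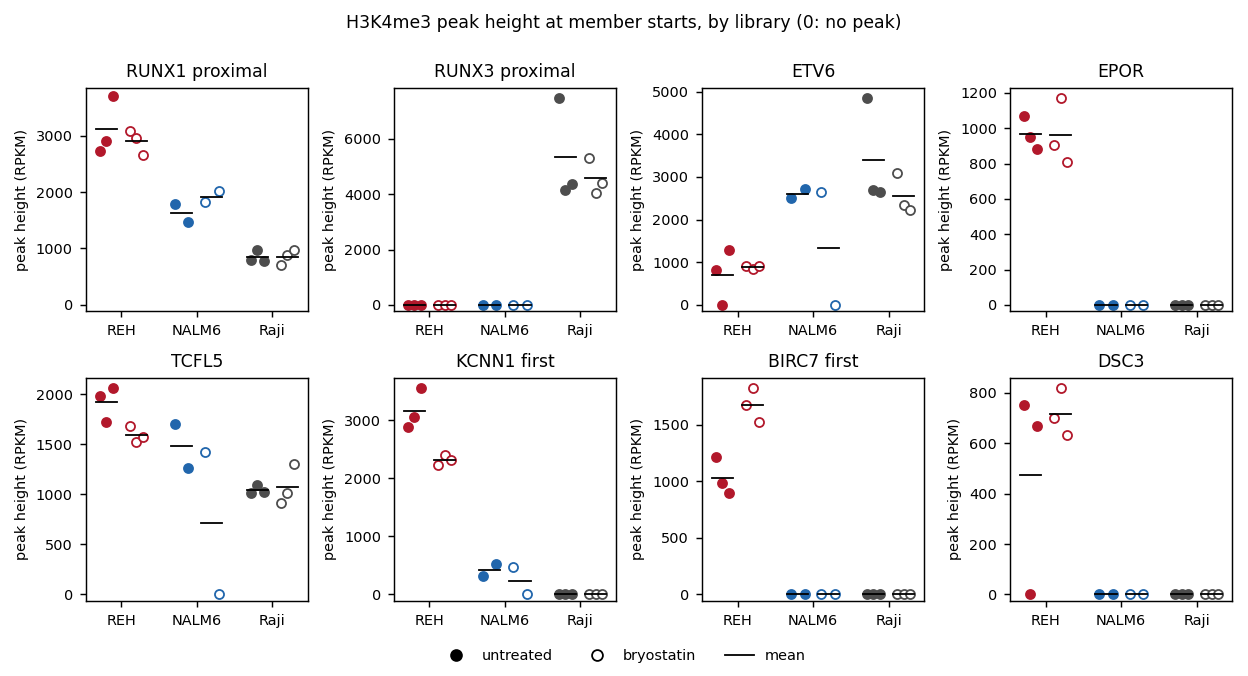
Height of the H3K4me3 peak in RPKM at 8 starts in every library of a line, filled for untreated and open for bryostatin, with a bar at the mean and 0 where no peak was called (NALM6 replicate 1 is left out for its other scale). At RUNX1 the REH heights of 2731 to 3695 RPKM stand above those of NALM6 and Raji, at RUNX3 only Raji has peaks, and BIRC7 rises and KCNN1 falls in REH after bryostatin.

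In the test across all start groups, few of these genes could be compared, since a start group had to be called in all 6 libraries. For untreated REH against Raji 3 of 5 tested genes passed for H3K4me2, RUNX1 higher and RUNX3 and ETV6 lower, while 37.3% of all 8274 tested start groups passed. For H3K4me3 2 of 3 passed, RUNX1 and TCFL5, both higher, against 46.8% of 7747. Calls against Raji were thus frequent among all genes. For REH against NALM6 2 of 3 passed for H3K4me3, RUNX1 and TCFL5, both higher, against 5.88% of 5940. For H3K4me2 against NALM6 none of 4 passed, against 6.02% of 4870 (293 start groups, and 150 when replicate numbers entered the fit as a block).

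A pair of further lists was counted in the same way. Of 10 other genes known to be high in ETV6-RUNX1 leukemia, 5 had both H3K4me2 and H3K4me3 peaks in all untreated REH libraries and in no untreated library of the other lines, namely IGF2BP1, an RNA-binding protein, CLIC5, a chloride channel protein, PTPRK, a receptor tyrosine phosphatase, ARHGEF4, a guanine nucleotide exchange factor, and SEMA6A, a semaphorin. Of all 19680 genes with a start group 0.823% had this pattern in both marks. SEMA6A also had H3K27me3 at 1 or more of its 4 start groups in 3 of 3 untreated libraries of REH and of Raji. This list was chosen with earlier results of these data known. Of the 15 cofactors of RUNX proteins and ETV6, 13 had H3K4me3 in all untreated REH libraries, 10 in NALM6 and 12 in Raji, against 41.4%, 31.8% and 51.1% of all genes. ETV7, the closest relative of ETV6, had H3K4me2 in REH alone. Against Raji, 4 cofactors were higher in REH for H3K4me3 (CREBBP, NCOR1, SIN3A and SUV39H1) and 3 were lower (HDAC3, PRMT1 and TLE3), of 11 tested. Of all 7747 start groups tested there, 46.8% passed. The median log2 change of the cofactors was 0.10, beside 0.02 over all start groups. Against NALM6, CBFA2T3 was higher (log2 change 1.66, limma adjusted p = 0.0183) and TLE4 was lower (log2 change -1.25, limma adjusted p = 0.0383), of 10 tested. Of all 5940 start groups tested against NALM6, 5.88% passed.

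The called share of the gene body compares whole genes. Against NALM6, the untreated REH libraries lay apart from the others for 7 of 10 genes in H3K4me2, all higher, against 33.6% of all genes, of which 4321 were higher and 98 lower in REH. For H3K4me3 this held for 3 of 9 genes, EPOR, KCNN1 and BIRC7, against 6.81%, and for H3K27me3 for DSC3 alone of 8, against 26%. Against Raji it held for 6 of 10 genes in H3K4me2, of which RUNX3 was lower, against 31.4%. In H3K4me3 it held for 7 of 10, with RUNX1, KCNN1 and BIRC7 higher and RUNX3, ETV6, EPOR and TCFL5 lower, against 23.5%. In H3K27me3 it held for 2 of 10, DSC3 higher and KCNN1 lower, against 5.28%. With equal numbers of peaks taken from each library the H3K4me3 genes changed. Against Raji they were then RUNX1, TCFL5 and KCNN1 higher and RUNX3 and ETV6 lower, of 8, so TCFL5 turned from lower to higher. Against NALM6 they were TCFL5 and KCNN1 higher and ETV6 lower, of 6. At BIRC7, H3K4me3 covered 70.5% ± 4.02 (SD, n = 3) of the gene in untreated REH and 0% in each library of the other lines, and the REH mean was 48.4% with equal numbers of peaks. RUNX3 was covered by H3K4me3 over 9.18% ± 1.26 (SD, n = 3) in Raji and 0% in REH and NALM6, and by H3K27me3 over 30.4% ± 26.1 (SD, n = 3) in NALM6.

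Bryostatin changed the H3K4me3 signal of 2 of 6 tested genes in REH, in opposite directions. BIRC7 rose from 1213, 988 and 894 RPKM to 1672, 1823 and 1524 RPKM in height, and its total signal was 1.78 times higher (log2 change 0.83, SE 0.13, limma adjusted p = 0.0168). KCNN1 fell at its first start from 2888, 3054 and 3557 RPKM to 2232, 2402 and 2317 RPKM (log2 change -0.45, SE 0.06, limma adjusted p = 0.00752). In both genes the total signals of all treated libraries lay apart from those of all untreated ones, as at 1344 of all 8193 tested start groups. Of all 8193 tested start groups 0.793% passed. In the further lists, SEMA6A was lower after bryostatin (log2 change -0.87, SE 0.09, limma adjusted p = 0.00293), of 7 tested leukemia genes. CBFA2T3 was lower at 2 start groups (log2 change -0.90 and -0.31, limma adjusted p = 0.0388 and 0.0467), of 13 tested cofactors. At the internal start of KCNN1 the log2 change was -0.09 (SE 0.06, limma adjusted p = 0.720). TCFL5 had heights of 1686, 1525 and 1569 RPKM after bryostatin, all below the untreated ones, with a log2 change of total signal of -0.36 (SE 0.07) and a limma adjusted p of 0.0526. EPOR, CBFB and both starts of RUNX1 gave limma adjusted p from 0.563 to 0.825. The BIRC7 call was lost without any 1 of the treated libraries (limma adjusted p from 0.0884 to 0.150), and the KCNN1 call without treated replicate 1 or 3 (limma adjusted p = 0.0679 and 0.0641). Neither held with the maximum or the mean signal, where the log2 changes were 0.69 and 0.87 for BIRC7 and -0.46 and -0.52 for KCNN1.

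For H3K4me2 in REH none of the 9 tested genes passed, and 0.3% of 10006 start groups did. The largest values were 0.58 (SE 0.29, limma adjusted p = 0.705) at ETV6 and -0.22 (SE 0.07, limma adjusted p = 0.463) at the proximal start of RUNX1. In NALM6 and Raji 0% of start groups passed for either mark by limma, with 25 and 5 start groups in NALM6 and 552 and 451 in Raji at an unadjusted p under 0.05 for H3K4me2 and H3K4me3. In Raji 13 start groups passed for H3K4me3 when replicate numbers entered the fit as a block, none of them at the named genes. Among the named genes the largest change in Raji was at RUNX3 for H3K4me2, where the called length went from 4750, 2210 and 8470 bp to 10760, 11120 and 10870 bp (log2 change 1.15, SE 0.37, limma adjusted p = 0.732, and 0.00756 without untreated replicate 3). H3K4me2 libraries of treated Raji were all deeper than the untreated ones, so length and depth moved together there.

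Whether REH responded differently from the other lines could be tested only for genes called in both lines. BIRC7, EPOR, DSC3 and the internal start of KCNN1 had too few peaks in the other lines, so their response was not compared. The first start of KCNN1 was compared for H3K4me2 against NALM6 only. The H3K4me3 responses of BIRC7 and KCNN1, the 2 genes called for bryostatin in REH, were therefore not compared between lines. None of the 3 and 2 genes tested against NALM6 for H3K4me2 and H3K4me3, and none of the 4 and 3 tested against Raji, passed. Of all start groups 0% passed against NALM6 for both marks and against Raji for H3K4me3, and 0.0258% against Raji for H3K4me2. At an unadjusted p under 0.05 the counts were 71 and 59 against NALM6 and 489 and 280 against Raji, for H3K4me2 and H3K4me3.

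**Figure D3:**
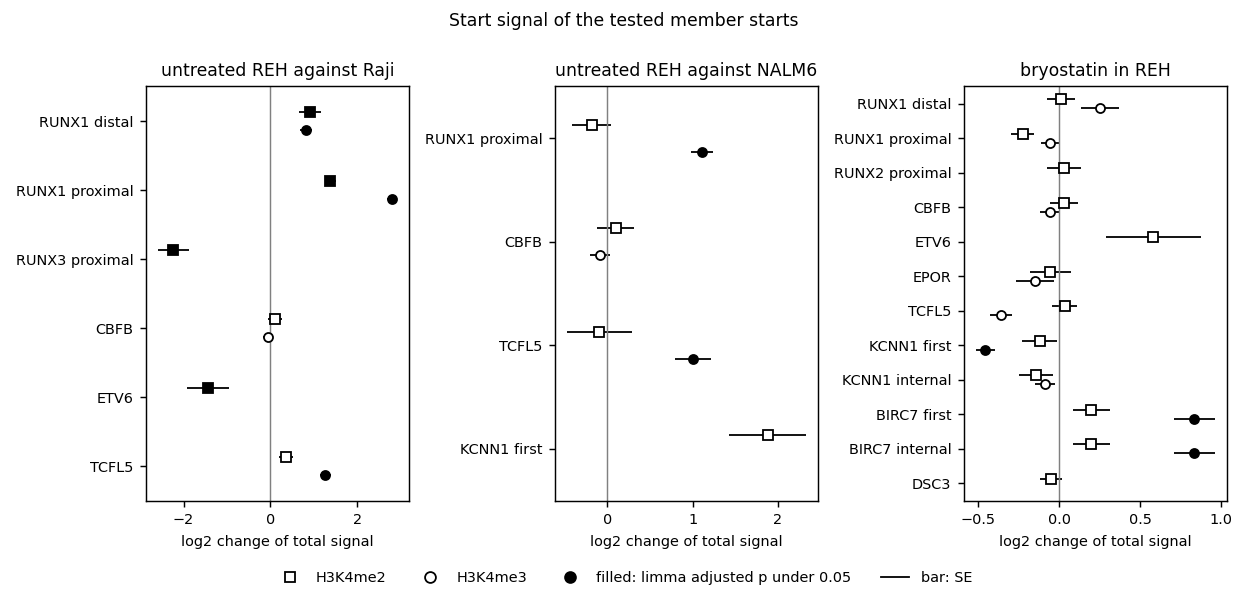
Log2 change of the total start signal with its SE for each tested start group, in untreated REH against Raji, untreated REH against NALM6 and bryostatin against untreated REH, with squares for H3K4me2 and circles for H3K4me3, filled where the limma adjusted p is under 0.05. The proximal start of RUNX1 has the largest H3K4me3 value against Raji, 2.79, and BIRC7 and KCNN1 are the filled points for bryostatin.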

How the data were processed

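Cut&Tag libraries of 3 marks were made from 3 lines, untreated or treated with bryostatin, in 3 replicates, and 18 IgG control samples were not used here. The authors trimmed reads with Trim Galore, aligned them to hg38 with Bowtie2, scaled coverage to RPKM and called peaks in each library with SEACR (versions are not given in the sources used here). The deposited signal of a peak is its coverage, as a sum and as a maximum, in bins of 10 bp in 48 libraries, while replicate 1 of NALM6 has another, unstated scaling. SEACR peaks carry no counts, so intervals for counting error were not computed.

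Starts were taken from GENCODE release 44, and promoter sequences from RefSeq on GRCh38.p14. Total signal at a start was taken as log2, centred on the library median over start groups called in all 18 libraries of the mark, and tested with limma 3.58.1 in R 4.3.3 (lmFit, eBayes with trend), two-sided, over start groups called in all libraries compared, with Benjamini-Hochberg adjustment and a threshold of 0.05. H3K27me3 was compared by presence and by called share of gene bodies, without a test. The test was run on simulated data with known changes, where a log2 change of 1 was recovered for 85% of changed start groups in REH against Raji for H3K4me3, 47% in REH against NALM6, 96% for bryostatin in REH, 66% in Raji and 0% in NALM6. All 10 named genes are given with values, members of the other lists only where they passed a test, were present in REH alone or mark a cell type, and the 3 start groups most like RUNX1. The members and lists were chosen with earlier results of these data known. Same-numbered replicates deviated together, with every correlation over 0.1, in REH against NALM6 for H3K4me2 (0.108 to 0.183), bryostatin in NALM6 (0.357 to 0.518 for H3K4me2 and 0.622 to 0.669 for H3K4me3) and bryostatin in Raji for H3K4me3 (0.358 to 0.466). Different-numbered replicates reached 0.130 in REH against NALM6 for H3K4me2 and 0.240 for bryostatin in Raji for H3K4me3. For bryostatin in NALM6 they reached 0.518 for H3K4me2 and 0.558 for H3K4me3. There replicates 2 and 3 correlated across numbers and both went against replicate 1, so pairing by number was not shown in NALM6. Any pairing comes from the data, not from the labels. Alternatives were the peak maximum or the mean per base, quantile normalization or no centring, other filters and windows, no trend, the replicate block, treated libraries, equal numbers of peaks, and leaving out each library.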

Additional observations from a re-analysis of the deposited data

How the results depend on the processing

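Of 69 log2 changes at single starts, 12 passed the threshold, and 1097 alternatives were computed for the 69. Of these alternatives 49 lost a call, 12 gained one in the same direction and 1 gained one in the opposite direction. Changes of sign without a call in either fit were not counted. The 2 start groups of BIRC7 share 1 peak in REH and have the same values. Its H3K4me3 call for bryostatin and the alternatives that lost it are therefore counted for each of them. TCFL5 for H3K4me2 in REH against NALM6 changed from -0.09 to 0.37 without NALM6 untreated replicate 1 (limma adjusted p = 0.0377), and ranged from -0.35 to 0.37 over the fits without 1 library. The number of named genes called in REH against NALM6 for H3K4me2 was 0, and became 1 with the maximum signal, 1 with the mean signal per base and 0 to 3 when 1 library was left out. For H3K4me3 it was 2, and became 0 with the maximum signal, 1 with the mean signal per base, 0 with no centring, 4 with start groups called in 2 of 3 libraries, 1 in the upper 0.5 of start groups by mean signal, 0 with the bryostatin libraries and 0 to 3 when 1 library was left out. In REH against Raji the 3 genes called for H3K4me2 became 1 with the mean signal per base, 1 in the upper 0.5 and 2 to 4 when 1 library was left out, and the 2 genes for H3K4me3 became 1 in the upper 0.5, 4 with the bryostatin libraries and 2 to 3 when 1 library was left out. For bryostatin in REH the 2 genes called for H3K4me3 became 0 with the maximum signal, 0 with the mean signal per base, 0 with no centring and 0 to 3 when 1 library was left out. For bryostatin in Raji the 0 genes called for H3K4me2 became 0 to 1 when 1 library was left out. With equal numbers of peaks, the single gene with H3K27me3 in REH alone became 0, and the genes apart in H3K27me3 over the body became 0 (from 1) against NALM6 and 1 (from 2) against Raji. Fewer start groups tested or fewer libraries were part of the construction of the filters and of leaving out libraries, and the cause of the other changes was not tested.

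When replicate numbers entered the fit as a block (replicate block), the 2 genes called in REH against NALM6 for H3K4me3 became 0, and 63 start groups in place of 349 were called. The pairing was not seen there, with same-number correlations from -0.12 to 0.28. In REH against Raji for H3K4me2 the block left 2 of 3 genes, since ETV6 had a limma adjusted p of 0.0753. The block changed no other count of named genes.

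Called peaks limit these results, since a start below the threshold of a library has no value, and starts with no peak could not be tested.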
